A study of Caenorhabditis elegans with 6 samples.

Results

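The abu and pqn genes of Caenorhabditis elegans encode proteins rich in glutamine and asparagine. They were taken as all genes with a symbol of abu- or pqn- followed by a number, after the sequence name of each array probe had been updated to a current gene symbol. Of 71 such symbols in the RefSeq gene table, 64 were measured (13 abu and 51 pqn genes, by 96 probes), out of 17922 genes measured in all. The other 7 (abu-4, abu-9, pqn-29, pqn-52, pqn-57, pqn-76 and pqn-79) were not analysed here. In that table abu-3 and pqn-11 are pseudogenes.

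Whole worms of the wild type strain N2 were grown from eggs for 72 h at 16 °C on agar dishes seeded with the bacterium Escherichia coli OP50. The dishes held the organophosphorus insecticide diazinon (DZN), which inhibits acetylcholinesterase, dissolved in acetone, or acetone alone for control worms, so that both groups received the solvent. The dose of DZN was 1 mg/l by the methods of the study, but 1 mg/ml in the sample names and 0.5 mg/ml in the protocol. The stage was L3 to L4 in the labels but L3 in the treatment protocol. Each of 6 two-colour arrays paired 1 extract of DZN worms with 1 extract of control worms, with DZN in Cy5 on 3 arrays (DZN-Cy5 replicates 1 to 3) and in Cy3 on the other 3 (DZN-Cy3 replicates 1 to 3). Where 3 values of an orientation are given together, they stand in the order of replicates 1 to 3. Worms of 4 dishes were pooled for a sample, and the 6 arrays were separate biological replicates per the design and the methods.

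The name abu stands for activated in blocked unfolded protein response, since several of these genes were first found to rise under endoplasmic reticulum (ER) stress in worms that lacked the transcription factor XBP-1. The name pqn stands for prion-like, Q/N-rich. Many abu and some pqn genes were later found to be expressed in the pharynx, the feeding organ, where their products help to form the pharyngeal cuticle, and their transcripts peak once in each larval moulting cycle. Other pqn genes share only the composition of their proteins and act elsewhere in the cell.

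Signal was stronger on the DZN-Cy3 arrays, where 63.3% to 81.4% of probes in a channel were above background, than on the DZN-Cy5 arrays, where 49.7% to 66.2% were, and signal strength cannot be told apart from dye orientation. Markers of intestine, neurons and ER chaperones were above background on all channels for 9 of 9, 8 of 8 and 22 of 23 genes, and those of oocytes and sperm for 6 of 9 and 5 of 9. Across all probes the ratios of different arrays correlated between -0.243 and 0.569. As whole worms were measured, fewer cells of a type and less RNA per cell cannot be told apart.

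Most of these genes were detected. A probe was taken as above background where its foreground was over 2 SD of the local background higher than the mean of that background, and each gene was represented by its brightest probe. In this sense 45 of the 64 genes (70.3%) were above background on every array in both DZN and control worms, 11 of the abu genes and 34 of the pqn genes, beside 46.7% of all genes. A further 13 were above background on some channels of both treatments. The probes of pqn-15 and pqn-83 were not above background on any channel, so their ratios hold no measured difference. The probe kept for pqn-15 by its sequence name carries another gene name in the platform table. In control worms alone, and there on at most 2 arrays, abu-3, pqn-10, pqn-16 and pqn-84 were above background. None of the 64 was saturated on any array.

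Between DZN and control worms, most of the 64 genes had small log2 ratios (DZN over control). The absolute ratio was below 0.3 for 55 genes, and 36 ratios were above 0 and 28 below 0. The median was 0.04, beside -0.01 over all genes. The 51 pqn genes had a median of 0.04, with 30 above 0, and the 13 abu genes had a median of -0.04, with 6 above 0. Shares of 56.2% of the 64 genes and 48.4% of all genes were above 0.

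In limma, with p-values adjusted over all probes (threshold 0.05), 0 of the 64 genes was called, against 0.0167% of all genes (3 genes, 0.0112% higher and 0.00558% lower). The smallest adjusted p was 0.296, for pqn-25. At an unadjusted p under 0.05 limma gave 6 of the 64 genes (9.38%), 4 higher (pqn-75, pqn-25, pqn-94 and pqn-80) and 2 lower (pqn-2 and pqn-10), against 11.8% of all genes (3.3% higher and 8.51% lower). The rank product test, which the study named as its test, called 1 of the 64 genes, pqn-75, as higher (1.56%), against 1.24% of all genes called in either direction. Higher calls made up 0.608% and lower calls 0.636% of all genes, and 0 of the 64 was called lower. A ratio of one sign on 6 of 6 arrays was found for 5 of the 64 genes (7.81%), positive for pqn-75, pqn-25 and pqn-80 and negative for pqn-10 and abu-14, against 5.58% of all genes (2.07% positive and 3.51% negative). Taken in either direction, these shares lay near those of all genes. By direction the unadjusted counts were 6.25% higher and 3.12% lower, and those of one sign 4.69% positive and 3.12% negative, each from 2 to 4 genes.

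**Figure D1:**
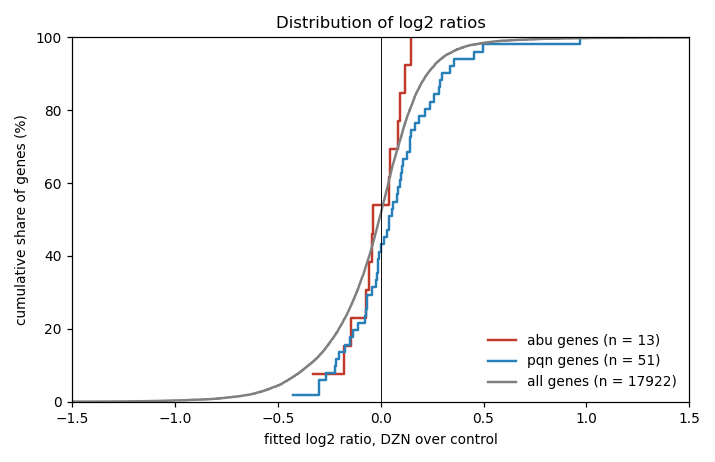
Cumulative share of genes (y axis, percent) by fitted log2 ratio of DZN over control (x axis) for the 13 abu genes, the 51 pqn genes and all 17922 genes measured. The x axis ends at 1.5 in each direction, beyond which some of all genes lie. The abu genes span -0.33 to 0.15, and the single pqn gene at the right is pqn-75 at 0.97.

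The precision of the fits set what could be seen. The standard error of the log2 ratio was 0.0892 to 0.315 over the 64 genes, with a median of 0.138. For 62 of the 64 genes, all 13 abu genes among them, the 95% interval of the fit lay within a 2-fold change in either direction. The exceptions were pqn-75 (0.28 to 1.66 on the log2 scale) and pqn-88 (-0.16 to 1.07). Over the abu genes the outermost bounds were -0.95 and 0.68. These intervals are for single genes and cover the spread between arrays within a dye orientation, as moderated by limma. Differences between the orientations are taken up by the dye term and not covered. The intervals are of little meaning for the probes near background named above, whose ratios are compressed.

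The gene with the highest ratio was pqn-75 (W03D2.1), known for expression in the gland cells of the pharynx. Its ratios were 0.36, 1.38 and 1.32 on the DZN-Cy5 arrays and 0.07, 0.37 and 2.33 on the DZN-Cy3 arrays. DZN was thus the higher channel on 6 of 6 arrays, but hardly so on DZN-Cy3 replicate 1. The log2 level ran from 9.69 to 12.71 in DZN worms and from 9.42 to 10.63 in control worms. Its mean level was 10.83 ± 1.09 in DZN worms and 9.86 ± 0.52 in control worms (log2 intensity, SD, n = 6 channels each), so that the lowest DZN channels overlapped the control channels and the highest did not. The fitted ratio was 0.97 ± 0.30 (SE, n = 6), a 1.96-fold difference, with an adjusted p of 0.34 in limma and a percentage of false positives (PFP) of 0.0299 in rank products. Both dye orientations gave positive means, 1.02 with DZN in Cy5 and 0.92 with DZN in Cy3.

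The rank product call of pqn-75 was not kept under every setting, although the ratio was often as large. Leaving out DZN-Cy5 replicate 1, 2 or 3 gave ratios of 1.14, 0.88 and 0.89 with a PFP of 0.0534, 0.253 and 0.075. Leaving out DZN-Cy3 replicate 1, 2 or 3 gave ratios of 1.18, 1.11 and 0.62 with a PFP of 0.0216, 0.0586 and 0.23, so that of the 6 arrays only DZN-Cy3 replicate 1 could be left out with the call kept. The call was also lost with plain subtraction (1.09, PFP 0.318), normexp at offset 0 (1.07, PFP 0.173), median centring (1.00, PFP 0.161) and spots of other quality codes than 3 left out (0.97, PFP 0.0759). In these settings rank products called 43, 91, 116 and 153 of all probes, against 234 with the processing used throughout. With arrays left out in turn the number was 87 to 324, so calls over all probes changed as well. Averaged over all 4 probes of the gene, among them the dim isoform c probe described below, the ratio was 0.56 (PFP 0.39).

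The 4 probes of pqn-75 did not give one value. Besides the brightest probe, which carries the name of isoform b, a pair of probes named for isoform a gave 0.82 ± 0.37 and 0.44 ± 0.28. The one with the higher ratio had ratios of 0.42, 1.85 and 0.02 on the DZN-Cy5 arrays and -0.11, 0.20 and 2.52 on the DZN-Cy3 arrays. The other had -0.24, 0.95 and 0.74 on the DZN-Cy5 arrays and -0.54, 0.13 and 1.58 on the DZN-Cy3 arrays. These 3 probes shared high values on DZN-Cy5 replicate 2 and DZN-Cy3 replicate 3, and 1 of the isoform a probes was near 0 on DZN-Cy5 replicate 3. A probe named for isoform c gave 0.03 ± 0.10, and it was above background on only 1 of 6 arrays in each treatment.

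Of the pharyngeal gland genes, phat-3 and phat-5, which encode secreted toxin-related proteins of the same gland cells, had ratios of 1.06 ± 0.29 (adjusted p = 0.303, PFP 0.011) and 0.89 ± 0.29 (adjusted p = 0.359, PFP 0.044). The ratios of phat-3 were 0.43, 0.90 and 0.85 on the DZN-Cy5 arrays and 0.18, 1.24 and 2.75 on the DZN-Cy3 arrays. Those of phat-5 were -0.28, 0.83 and -0.18 on the DZN-Cy5 arrays and 0.67, 1.36 and 2.90 on the DZN-Cy3 arrays. As for pqn-75, the highest value of both was on DZN-Cy3 replicate 3. The lowest of the 9 gland genes were phat-1 at -0.06 and kel-1 at -0.05, the median was 0.01, and rank products called 2 higher and limma 0. Of the 9, 6 were above background on all channels and none was below background on every channel, and their summed log2 level was 14.33 to 15.24 in DZN worms and 14.38 to 15.17 in control worms. The part of gland cell number in the ratio of pqn-75 was not tested.

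**Figure D2:**
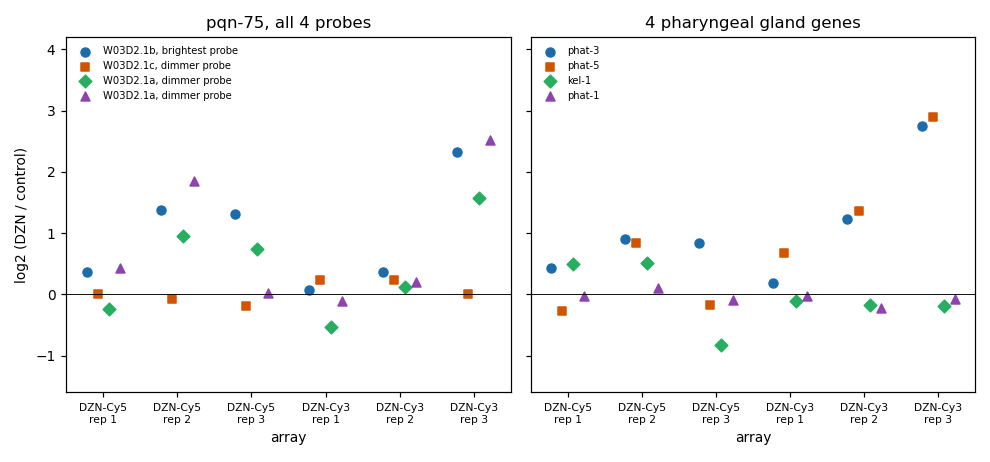
Log2 ratio of DZN over control (y axis) on each array (x axis) for the 4 probes of pqn-75 (left) and for the 2 highest and 2 lowest pharyngeal gland genes (right), points of an array being set side by side. On DZN-Cy3 replicate 3 the brightest pqn-75 probe was at 2.33, phat-3 at 2.75 and phat-5 at 2.90, while phat-1 and kel-1 stayed near 0.

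The next highest ratio was that of pqn-25 (D1044.3). It gave 0.15, 0.22 and 0.12 on the DZN-Cy5 arrays and 0.52, 0.58 and 1.38 on the DZN-Cy3 arrays, with DZN the higher channel throughout and every DZN-Cy3 array above every DZN-Cy5 array. The fitted ratio was 0.50 ± 0.14 (adjusted p = 0.296), and the difference between orientations (DZN-Cy5 minus DZN-Cy3) was -0.66, with an adjusted p of 0.414 for the dye term. The second probe of pqn-25 gave 0.36 ± 0.14 (adjusted p = 0.431), was also positive on 6 of 6 arrays, and ranged from 0.07 to 1.04. Its 3 lowest values did not all lie in one orientation.

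The remaining members of the 4 highest were pqn-88 and pqn-94. The ratios of pqn-88 (Y71G12B.21) were -0.23, 0.61 and -0.36 on the DZN-Cy5 arrays and 0.06, 0.55 and 2.09 on the DZN-Cy3 arrays. Its fitted ratio of 0.46 ± 0.26 (adjusted p = 0.565) came largely from DZN-Cy3 replicate 3, and without that array it was 0.16. By contrast, pqn-94 (ZC15.8) had ratios of -0.01, 0.52 and 0.11 on the DZN-Cy5 arrays and 0.34, 0.36 and 0.83 on the DZN-Cy3 arrays, a fitted ratio of 0.36 ± 0.12 (adjusted p = 0.375). It ranged from 0.28 to 0.41 when arrays were left out in turn. Positive on all arrays, but with smaller values, was pqn-80 (Y111B2A.14), named as 1 of the 5 genes with one sign. Its ratios were 0.32, 0.65 and 0.27 on the DZN-Cy5 arrays and 0.04, 0.13 and 0.33 on the DZN-Cy3 arrays, with a fitted ratio of 0.29 ± 0.10 (adjusted p = 0.393).

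Of the 4 lowest, pqn-2 (AC3.4) had ratios of -0.04, 0.04 and -0.63 on the DZN-Cy5 arrays and -0.98, -0.75 and -0.20 on the DZN-Cy3 arrays. Its level was 7.24 ± 0.59 in DZN worms and 7.66 ± 0.90 in control worms (log2 intensity, SD, n = 6 channels each), above background on 4 of 6 arrays in each, and the fitted ratio was -0.43 ± 0.14 (adjusted p = 0.375). Control worms were thus clearly higher on 3 arrays, and the ratios lay between -0.20 and 0.04 on the other 3.

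The ratio of pqn-68 (T16G1.10) was 0.08, -0.33 and -0.78 on the DZN-Cy5 arrays and 0.14, -0.10 and -0.83 on the DZN-Cy3 arrays. Both of its low values were on arrays numbered 3, one in each orientation, and the fitted ratio was -0.30 ± 0.17 (adjusted p = 0.544). It was -0.19 when DZN-Cy5 replicate 3 was left out, -0.16 when DZN-Cy3 replicate 3 was, and -0.17 with median centring. The ratio of pqn-10 (C09E7.2) was negative on 6 of 6 arrays, from -0.55 to -0.08, with a fitted value of -0.30 ± 0.11 (adjusted p = 0.397). This probe was above background on no array in DZN worms and on 1 array in control worms, and its ratio moved with the background correction, being -1.14 with plain subtraction and -0.78 with normexp at offset 0. The same held for pqn-84 (Y41C4A.5), above background on no array in DZN worms and on 2 arrays in control worms, with -0.26 ± 0.13 (adjusted p = 0.521) and with -0.52 under plain subtraction and -0.14 with no correction. As most control channels of pqn-10 and pqn-84 were not above background either, no fold is given for them.

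The abu genes, whose products are mostly cysteine-rich as well as glutamine-rich, stayed within a narrow band of fitted ratios, -0.33 to 0.15, and the smallest adjusted p among them was 0.588 (abu-14). By array, however, their median moved more than that of the pqn genes. It was -0.03, 0.26 and 0.09 on the DZN-Cy5 arrays and -0.20, -0.25 and 0.06 on the DZN-Cy3 arrays (SD over arrays 0.19), with 6, 10, 8, 3, 4 and 9 of the 13 genes above 0 in that order. The median of the pqn genes was 0.08, 0.06 and 0.06 on the DZN-Cy5 arrays and 0.02, 0.04 and 0.22 on the DZN-Cy3 arrays (SD 0.07), so it was positive on 6 of 6 arrays and highest on DZN-Cy3 replicate 3. The medians of all genes lay between -0.04 and 0.004.

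The most stable member of the whole group was abu-14 (ZK1067.7), with ratios of -0.14, -0.12 and -0.11 on the DZN-Cy5 arrays and -0.19, -0.23 and -0.09 on the DZN-Cy3 arrays. Control worms were the higher channel on all arrays, by a fitted -0.15 ± 0.09 (adjusted p = 0.588), and the SD over arrays of 0.0526 was the smallest of the 64 genes. The limma error of abu-14 is larger than this SD alone would give, since limma moderates it towards that of other probes. Its level was 13.50 ± 0.41 in DZN worms and 13.64 ± 0.44 in control worms.

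At the other end, abu-2 and abu-5 were among the 5 genes with the largest SD over arrays. The ratios of abu-2 (F19G12.7) were -0.91, 0.09 and 0.74 on the DZN-Cy5 arrays and -1.27, -0.97 and 0.35 on the DZN-Cy3 arrays, with a fitted ratio of -0.33 ± 0.27 (adjusted p = 0.679). This ratio was -0.11 and -0.17 when replicate 1 of the DZN-Cy5 or the DZN-Cy3 arrays was left out, and -0.52 and -0.58 when replicate 3 of them was. Those of abu-5 (Y105C5A.4) were -0.47, 0.13 and 1.14 on the DZN-Cy5 arrays and -1.01, -0.38 and 0.83 on the DZN-Cy3 arrays, with 0.04 ± 0.27 (adjusted p = 0.974). Both were below 0 on replicate 1 of either orientation and on DZN-Cy3 replicate 2, and above 0 on the other 3 arrays. The correlation of their ratios over the 6 arrays was 0.973, given as a description, since the arrays and their normalization are shared by both genes.

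Markers of the germ line also differed between arrays. The 9 oocyte markers had medians of -0.14, 0.01 and 0.97 on the DZN-Cy5 arrays and -0.75, -0.66 and 0.24 on the DZN-Cy3 arrays. The 9 sperm markers had -0.60, 0.04 and 0.78 on the DZN-Cy5 arrays and -1.26, -1.27 and -0.19 on the DZN-Cy3 arrays. Thus DZN-Cy3 replicates 1 and 2 were low and DZN-Cy5 replicate 3 was high for both lists, as for abu-2, while limma called 0 of either list and rank products 0 oocyte and 1 sperm marker, as lower. The summed log2 level of the oocyte markers was 12.59 to 14.23 in DZN worms and 12.56 to 14.32 in control worms, and that of the sperm markers was 14.42 to 16.54 in DZN worms and 15.17 to 16.32 in control worms, with spe-38 above background on no channel. The part of these cells in the ratios of abu genes was not tested.

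Differences between the dye orientations were next examined. For the dye term limma called 0 of the 64 genes and 0% of all genes, and at an unadjusted p under 0.05 it gave 6 of the 64 (9.38%) against 12.1% of all genes. The smallest p was that of abu-12 (F52D1.3), with ratios of 0.64, 0.07 and 0.66 on the DZN-Cy5 arrays and -0.20, -0.63 and -0.76 on the DZN-Cy3 arrays. DZN was the higher channel on the DZN-Cy5 arrays and the lower on the DZN-Cy3 arrays, without overlap, so that the orientations differed by 0.98 (adjusted p = 0.316 for the dye term) and the fitted ratio was -0.04 ± 0.13. The pseudogene pqn-11 (C09G1.1) followed, with orientation means of 0.30 and -0.52 and a ratio of -0.11 ± 0.16, but it was above background on 1 array in DZN worms and 2 in control worms. Non-overlapping orientations were found for 13 of the 64 genes (20.3%), against 19.5% of all genes.

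The largest SD over arrays, 1.21, was that of pqn-31 (F21C10.8). Its ratios were -0.55, 0.52 and -2.23 on the DZN-Cy5 arrays and 0.26, 0.95 and 0.91 on the DZN-Cy3 arrays. A strongly low value on DZN-Cy5 replicate 3 thus offset positive values on 4 arrays, and the fitted ratio was -0.02 ± 0.31. Without that array it was 0.35. On the same array pharyngeal muscle markers had a median of -0.89, and their medians on the other 5 arrays lay between -0.22 and 0.25. Neuron markers had a median of -0.50 on that array, against -0.11 to 0.13 on the others. The pharyngeal gland genes had -0.09 there and the other pharyngeal cuticle genes 0.11. Of the 8 muscle markers 7 were above background on all channels. Their summed log2 level was 15.32 to 16.46 in DZN worms and 15.57 to 16.28 in control worms. The part of these tissues in the value of pqn-31 was not tested.

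**Figure D3:**
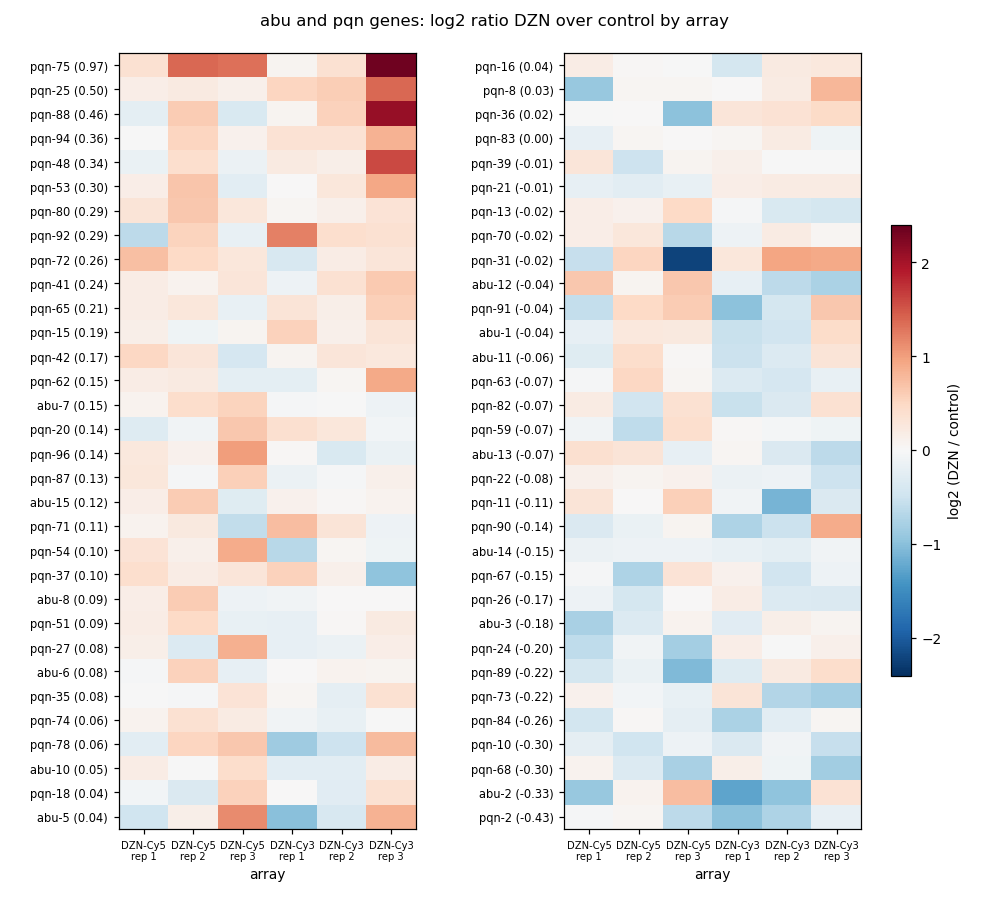
Log2 ratio of DZN over control (colour, red for higher in DZN worms and blue for lower) of each of the 64 abu and pqn genes (rows, ordered by the fitted ratio in parentheses) on each of the 6 arrays (columns). The darkest cells are pqn-75 and pqn-88 on DZN-Cy3 replicate 3, at 2.33 and 2.09, and pqn-31 on DZN-Cy5 replicate 3, at -2.23.

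Single arrays carried many of the extreme values. Among the 64 genes DZN-Cy3 replicate 3 had the highest ratio of the 6 arrays for 20 genes and the lowest for 9. The highest ratio was on DZN-Cy5 replicate 3 for 16 genes, and the lowest was on that array for 14 and on DZN-Cy3 replicate 1 for 19. Such counts were not made over all genes, so whether they are particular to these 64 genes is not known. The number of the 64 genes above 0 was 33, 43 and 38 on the DZN-Cy5 arrays and 32, 31 and 41 on the DZN-Cy3 arrays. The corresponding shares were 48.4% to 67.2%, beside 45.6% to 50.6% of all genes.

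Genes with several probes showed how far a single array value could be trusted. Of 16 such genes, 9 had fitted ratios of one sign over all probes, and the largest gap between probes of a gene was 0.94, for pqn-75. For abu-1, abu-8 and abu-15, the 3 abu genes with more than 1 probe above background, the 3 brightest probes had ratios of -0.29 to 0.23 on DZN-Cy5 replicate 3, and the other 5 probes had 0.97 to 1.62. On the other 5 arrays the ranges of the brightest and of the other probes overlapped, for instance -0.19 to 0.17 and -0.17 to 0.31 on DZN-Cy5 replicate 1. The fitted ratios of these 8 probes still lay between -0.04 and 0.27. A dimmer probe of pqn-36, a gene with 6 probes, gave 2.25 on DZN-Cy3 replicate 3, against 0.45 for the brightest one. As probe sequences were not used here, which of these related genes a probe can tell apart was not examined.

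**Figure D4:**
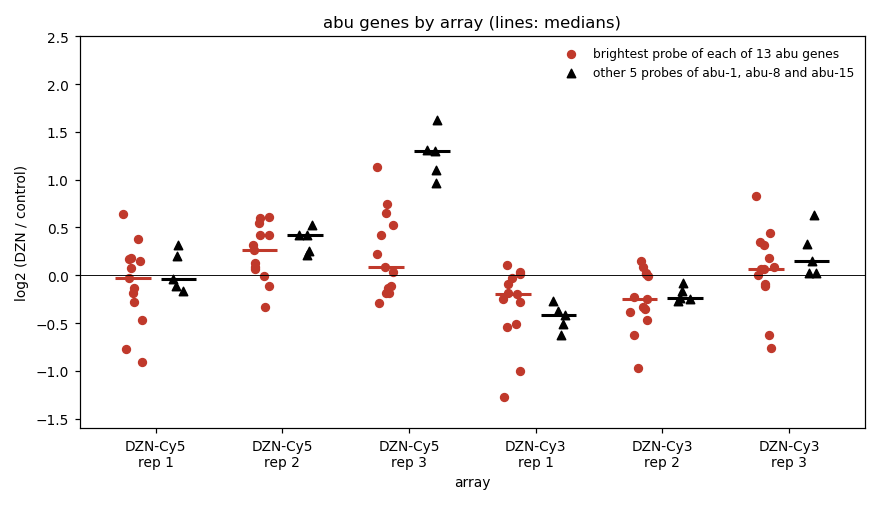
Log2 ratio of DZN over control (y axis) on each array (x axis) for the brightest probe of each of the 13 abu genes (red circles) and for the other 5 probes of abu-1, abu-8 and abu-15 (black triangles), with lines at the medians and points spread sideways for sight. The other 5 probes sat at 0.97 to 1.62 on DZN-Cy5 replicate 3, above the brightest probes of the same 3 genes.

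In the RefSeq gene table of assembly WBcel235 the 64 genes lie on all 6 chromosomes, with 18 on chromosome V and 12 on chromosome X, and some are neighbours. For the adjacent pqn-90 and pqn-91 on chromosome IV the correlation of ratios over the 6 arrays was 0.815, and for abu-5 and pqn-78, with 1 gene between them on the same chromosome, it was 0.932. For abu-1 and pqn-2, adjacent on chromosome V, it was 0.639, and for the run of abu-15, abu-6 and abu-7 the mean over 3 pairs was 0.365. Such values were not particular to neighbours. A correlation above 0.6 was found for 15.8% of all pairs of the 64 genes and for 13% of pairs of all genes. Between abu-1 on chromosome V and pqn-78 on chromosome IV it was 0.986. Over all pairs the mean correlation was 0.267 for abu genes (78 pairs), 0.0232 for pqn genes (1275 pairs) and 0.00247 for all genes. With the mean of each dye orientation removed it was 0.104 for abu genes, 0.0387 for pqn genes and 0.00259 for all genes. These are descriptions over 6 arrays that share libraries and normalization, and neighbouring genes with similar sequence may share signal.

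Named roles are known for a few pqn genes outside the pharynx, which were chosen here for those roles after their values were seen. For pqn-41 (F53A3.4), which encodes a polyglutamine-repeat protein needed for death of the linker cell of males, the ratio was 0.24 ± 0.12 (adjusted p = 0.528). For pqn-59 (R119.4), related to the human stress granule protein UBAP2L, it was -0.07 ± 0.14 (adjusted p = 0.884). Levels of pqn-59 were 13.80 ± 0.38 in DZN worms and 13.87 ± 0.14 in control worms.

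The unfolded protein response of the ER, from which the abu genes take their name, was examined by 23 genes of its sensors, transcription factors and chaperones. The median ratio was -0.05, 10 of the 23 were above 0, and limma and rank products called 0. The highest were the sensor gene atf-6 at 0.18 ± 0.13 (adjusted p = 0.656) and the chaperone gene enpl-1 at 0.16 ± 0.09 (adjusted p = 0.568). The lowest were calnexin cnx-1 at -0.44 ± 0.25 (adjusted p = 0.562) and the Hsp70-like stc-1 at -0.36 ± 0.16 (adjusted p = 0.471). The BiP gene hsp-4, commonly used to report on this response and named here after its values were seen, had 0.26, -1.45 and 1.45 on the DZN-Cy5 arrays and -0.15, -0.40 and -0.60 on the DZN-Cy3 arrays, with a ratio of -0.15 ± 0.32 (adjusted p = 0.896).

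Of 24 other genes of the pharyngeal cuticle, 21 were measured, among them chitin synthase chs-2 and the intrinsically disordered proteins of that cuticle. Their median ratio was -0.07, 4 of 21 were above 0, and 0 were called by limma or rank products. The highest were idpc-2 at 0.11 ± 0.24 and idpp-9 at 0.08 ± 0.12, and the lowest were idpb-2 at -0.55 ± 0.19 (adjusted p = 0.375), negative on 6 of 6 arrays, and idpp-4 at -0.25 ± 0.12. The 8 pharyngeal muscle markers had a median of -0.05 and 0 calls by either test.

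Genes of the moulting cycle and body cuticle were examined as many abu and pqn genes cycle with the moult. The 24 genes had a median of -0.23, with 5 above 0 and 0 called by limma or rank products. The highest were the nuclear receptor gene nhr-25 at 0.21 ± 0.15 and mlt-8 at 0.18 ± 0.14, and the lowest were the protease inhibitor gene bli-5 at -0.59 ± 0.16 (adjusted p = 0.305) and the astacin protease gene nas-37 at -0.59 ± 0.26 (adjusted p = 0.479). The median by array was 0.10, -0.23 and 0.04 on the DZN-Cy5 arrays and 0.08, -0.14 and -0.88 on the DZN-Cy3 arrays. On DZN-Cy3 replicate 3, where these genes were lowest, the median of the pqn genes was at its highest. Of the 24, 23 were above background on all channels, with a summed log2 level of 17.28 to 17.83 in DZN worms and 17.69 to 17.98 in control worms.

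**Figure D5:**
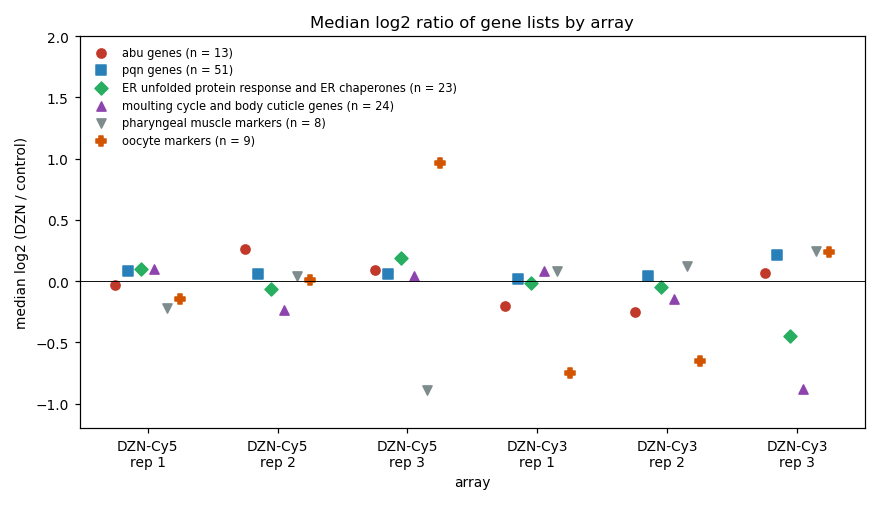
Median log2 ratio of DZN over control (y axis) on each array (x axis) for abu genes, pqn genes and 4 other gene lists, with the number of genes measured in parentheses. The abu and pqn medians stayed between -0.25 and 0.26, while the moulting list reached -0.88 on DZN-Cy3 replicate 3 and the oocyte list 0.97 on DZN-Cy5 replicate 3.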

How the data were processed

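The scanner files deposited hold spot intensity on a linear scale with its local background, not normalized, and the headers name ScanArray Express, beside the percent of saturated pixels and a quality score per spot whose codes the sources do not explain. The authors also deposited log2 ratios, which equalled loess on the foreground without background correction, already turned to DZN over control (correlation 0.9997 to 1, slope 0.9988 to 1.001 on each array, column medians -0.0146 to 0.0113). The genome build of the array design was not found in labels, headers or methods. Of 23232 spots on an array, 22490 were worm probes. By sequence name 21382 probes matched a current gene of the RefSeq table (assembly WBcel235, used for names and neighbours only), 31 more through the gene number in the platform table, and 1077 could not be matched. In 35 cases the platform table named another gene than the sequence name, which was kept.

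Mean spot signals were corrected by normexp with an offset of 50, then normalized by loess within arrays (control spots at weight 0) and Aquantile between arrays in limma 3.58.1 under R 4.3.3. Ratios were turned to DZN over control and fitted per probe by lmFit and eBayes with a dye term (4 residual degrees of freedom, 3.56 from the prior). P-values are two-sided and adjusted by Benjamini-Hochberg over all probes. Errors beside a ratio are SE of limma with n = 6 arrays, and correlations are Pearson's r. A one-class rank product was computed from its definition, with p from a gamma distribution and a PFP under 0.05. The PFP given here is this p adjusted by Benjamini-Hochberg over all probes, for each direction apart. The study estimated its PFP by permutation in the Rank Product package, so the measures are not the same. The rank product takes the same spread for all probes, and whether the study ran it as one-class is not known. The fits were tested on simulated data with independent noise per probe and array. This test does not cover swings that genes share on an array, so it does not bear on single calls. Precision is limited by the number of arrays.

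The genes named were those called, those with one sign on 6 arrays and an absolute ratio of at least 0.3, the 4 highest and 4 lowest, the 5 with the largest SD, the 2 with the smallest p for the dye term and those above background in 1 treatment alone whose bound gave a fold above 1. Of the other lists on pharynx, moulting and unfolded protein response, the 2 highest and 2 lowest were named. Other gland genes were named for DZN-Cy3 replicate 3 after their values were seen. Of the marker lists not given with the results, the median ratio was 0.06 for intestine, 0.00 for body wall muscle, 0.06 for neurons and -0.03 for hypodermis, with 0 calls in limma and 1 hypodermis gene called lower by rank products. The 6 vitellogenins had -1.64, with array medians of -4.17 to 1.12, and rank products called all 6 lower, limma 0. The members and lists were chosen with earlier results of these data known. Sequences of proteins, promoters and probes were not used here. Alternatives concerned background, normalization, dye term, filters, probes and left-out arrays.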

Additional observations from a re-analysis of the deposited data

Results flagged for a closer look

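In groups of 6 arrays, a single extreme array was looked for by Dixon's test in 29 results, and 3 passed, all on DZN-Cy3 replicate 3. Chance flags about 1 in 20 groups that are independent and not selected. These groups share the same 6 arrays, and some genes were named for a large SD or an extreme ratio. The ratio of pqn-25 was 1.38 on that array, with a gap to the next array of 0.634 of the range. The median over the pqn genes was 0.215 there (0.684 of the range). The median of the moulting and body cuticle list was -0.879 there (0.66 of the range). Over the ratios of all 64 genes, 6 passed, 3 on DZN-Cy3 replicate 3 and 1 each on DZN-Cy5 replicate 2, DZN-Cy5 replicate 3 and DZN-Cy3 replicate 1. The share that passes among all genes was not computed, so this count cannot be read as particular to the 64. The cause of these extreme values was not tested.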

How the results depend on the processing

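Limma called 0 of the 64 genes in all 19 alternatives. The count of rank products (1, pqn-75) was 0 with plain subtraction, normexp at offset 0, median centring, spots of quality codes other than 3 left out and the mean over all probes of a gene, and 0 to 1 with arrays left out in turn. Over all probes rank products called 234, but 43 with plain subtraction, 91 at offset 0, 116 with median centring and 153 with other codes left out. Without DZN-Cy5 replicate 1, 2 or 3 they called 100, 159 and 324. Without DZN-Cy3 replicate 1, 2 or 3 they called 136, 87 and 169. For the dye term limma called 5 genes with median centring (7.81%), against 6.22% of all genes under that setting. Genes with one sign on all arrays (5) numbered 2 with median centring and 2 with spots of other codes left out. Under that filter 54 genes kept a fitted ratio, but a gene lacking a value on any array could not count. The number was 5 to 9 with arrays left out, where fewer arrays have to share a sign, which is met more easily. Shares of all genes with one sign were not computed for these settings. The mean pairwise correlation was 0.176 with median centring, 0.0602 with dim probes left out, 0.103 with spots of other codes left out, 0.0758 with the mean over all probes and 0.0331 to 0.0676 with arrays left out. The mean over pairs of all genes was not computed for these settings, so these values cannot be read as particular to the 64. The median over the 64 genes was 0.01 to 0.09 with all arrays and -0.01 to 0.07 with arrays left out, below 0 without replicate 3 of either orientation.

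Of 241 values of the 13 named genes under alternatives, 230 kept direction and side of the threshold and 11 turned direction, all of genes with ratios near 0. The fitted ratio cannot change without the dye term or with the replicate block, so part of this count was fixed in advance. None of the 13 passed the limma threshold in any setting, so the side of the threshold did not vary. The ratio of pqn-31 was 0.0403 with median centring, 0.0118 with scale normalization and -0.34 to 0.35 with arrays left out. That of abu-5 was -0.0512 with scale normalization and -0.21 to 0.24 with arrays left out. That of abu-12 was 0.0367 with median centring and -0.119 to 0.0591 with arrays left out, and that of pqn-11 was -0.22 to 0.0369. With spots of other codes left out the ratio was 0.83 for pqn-25, 0.90 for pqn-88 and -0.63 for abu-2. Each is the mean of the DZN-Cy3 arrays alone, as no DZN-Cy5 value was left. For pqn-2 it was -0.86, the mean of DZN-Cy3 replicates 1 and 2 alone. These values thus come from a single dye orientation and are not balanced for dye. Without DZN-Cy3 replicate 1 the ratio of pqn-84 was -0.16. The ratio of pqn-75 ranged from 0.56 to 1.18 and its adjusted p from 0.227 to 0.71. Over all probes limma called 4, but 30 with median centring, 132 without DZN-Cy3 replicate 3 and 0 with the replicate block.

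With the mean of each dye orientation removed, same-numbered arrays of the orientations correlated at 0.143, -0.0214 and -0.123 over all genes. Arrays of another number reached 0.173, 0.319 and 0.222, so the numbers were not taken to pair samples. With the replicate block limma called 0 of the 64 genes, and pqn-75 had 0.97 (adjusted p = 0.242). The causes of these changes were not tested. Depth limits the dim probes: 2 of the 64 genes were above background on no channel.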
